A study of Mus musculus with 4 samples.

Results

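The subject of these measurements was a group of voltage-gated sodium channel genes: the pore-forming alpha subunit genes Scn1a, Scn2a, Scn3a, Scn8a and Scn9a, and the beta subunit genes Scn2b, Scn3b and Scn4b. The 8 genes were taken by symbol from a fixed list, and all 8 were among the 32285 genes of each of the 4 libraries. The rule itself used no measured value, but the list was chosen with earlier results of these data known. Nuclei were isolated from frozen hippocampus of female C57BL/6J mice that began a 10-week running-wheel period when aged 8 weeks, and their RNA was counted in droplets with a 3′ kit. There was 1 library in each of 4 groups: WT without exercise, WT with exercise, APPNL-G-F without exercise and APPNL-G-F with exercise. APPNL-G-F mice carry a knock-in of the App gene with a humanised amyloid-beta sequence and the Swedish, Iberian and Arctic mutations, so that App is driven by its own promoter. The housing text of the labels names a wheel for every sample, while the titles set the exercise groups apart, and the number of mice in a library is not stated.

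A voltage-gated sodium channel is a complex of 1 pore-forming alpha subunit with beta subunits. The alpha subunit opens on depolarisation, carries the inward current of the rising action potential and closes within milliseconds, when an inactivation gate swings into the pore. Beta subunits are single-span membrane proteins with an immunoglobulin-like domain that change gating, surface level and adhesion, and beta subunits are substrates of the beta- and gamma-secretases that also cut the amyloid precursor protein. In forebrain, Scn1a is best known for its role in fast-spiking inhibitory neurons, Scn2a and Scn8a for axon initial segments of excitatory neurons, Scn3a for the developing brain, and Scn9a for pain-sensing neurons.

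Over the 4 libraries, 34744 nuclei were kept after filters on genes, UMIs (unique molecular identifiers, each marking 1 captured RNA molecule), mitochondrial UMIs and doublets, with 6508 to 10213 nuclei per library and medians of 5044 to 7329 UMIs per nucleus. Pairs of libraries shared 20 to 42 barcodes. Malat1, a nuclear noncoding RNA, took 3.22, 6.06, 9.57 and 3.35% of all UMIs in WT without exercise, WT with exercise, APPNL-G-F without exercise and APPNL-G-F with exercise, and 4 CPM or UMI values in a row always follow that order of groups. Nuclei were put into classes from fixed marker genes, so each class name stands for a class with the markers of that cell type and not for an annotation by the authors, and 12 to 16.1% of nuclei stayed unnamed. Levels are UMIs of a gene per 1000000 UMIs of all genes in that class (CPM), and every interval covers counting error only. With 1 library per group no difference had a replicate check, no p-value was computed, and differences are between libraries.

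None of the 8 genes was among the variable genes that were used for clustering. The 8 genes together gave 98646, 70997, 60645 and 83108 UMIs, or 0.114 to 0.130% of all UMIs.

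The alpha subunit genes are close copies in their coding parts. For each gene the GENCODE protein-coding transcript with the longest open reading frame was compared over its whole length, untranslated parts included. The longest stretch that a pair had in common without a mismatch was 188 bases, between Scn1a and Scn2a, followed by 184 bases between Scn3a and Scn9a. Scn8a shared no more than 55 bases with any of the other 4. How reads that match more than 1 gene were handled is not stated, so a read inside such a stretch could have been split or lost for Scn1a, Scn2a, Scn3a and Scn9a.

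Scn1a encodes an alpha subunit that is needed for fast firing of inhibitory neurons. The gene lies at chr2:66270778-66440840 on the minus strand of GRCm38. Inhibitory nuclei held more of it than any excitatory class. The summed inhibitory class gave 459, 433, 438 and 378 CPM. CA1 pyramidal nuclei gave 208, 210.2, 218 and 202 CPM. Dentate granule nuclei gave 182, 181, 160.0 and 162 CPM. In each library the inhibitory value was the highest of these classes and the granule value the lowest, with no overlap between inhibitory and excitatory libraries. CA3 nuclei gave 236, 236, 254 and 229.5 CPM and CA2 nuclei gave 254, 226, 232 and 243 CPM. Among inhibitory nuclei the MGE class (Lhx6, Sox6 and Nxph1, the type that includes parvalbumin and somatostatin neurons) had a mean of 423 ± 41.6 CPM (SD, n = 4 libraries), the CGE class (Adarb2) 430.1 ± 36.6 CPM and the Lamp5 class 439 ± 33.7 CPM. The ranges of those 3 classes overlapped, so their order is not larger than the spread over libraries.

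Among the 4 largest parts of the MGE class, Scn1a was higher in the Pvalb-rich than in the Sst-rich parts. Reclustering gave 10 parts, and the 4 largest were parts 0 and 3, which were richer in Pvalb (66.4 and 78.7 CPM over all libraries), and parts 1 and 2, which were richer in Sst (209 and 233 CPM). In part 0 Scn1a stood at 548, 584, 561 and 439 CPM. In part 3 it stood at 537, 553, 562 and 447 CPM. In part 1 it stood at 335, 362, 286 and 303 CPM and in part 2 at 393, 377, 396 and 299.8 CPM. The Pvalb-rich parts were above the Sst-rich parts in every library. The smaller parts did not all follow this split. Over all libraries part 6 had Pvalb at 52.6 and Scn1a at 521 CPM, but part 7, with Sst at 144 CPM and Pvalb at 5.14 CPM, also had Scn1a at 509 CPM. Part 8 (58 nuclei) held both Pvalb (92.3 CPM) and Sst (236 CPM) and had Scn1a at 328 CPM. Its leading genes included Prr5l, Mobp and St18, markers used here for oligodendrocytes, and the mitochondrial genes mt-Atp6 and mt-Co2. The part of oligodendrocyte RNA in its values was not tested. Among the 4 largest parts Scn8a differed in the same direction as Scn1a, with 447 and 439 CPM in the Pvalb-rich parts against 305 and 256 CPM in the Sst-rich parts over all libraries. Scn3b went the other way, with 16.4 and 15 CPM against 55.3 and 32.9 CPM.

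**Figure D1:**
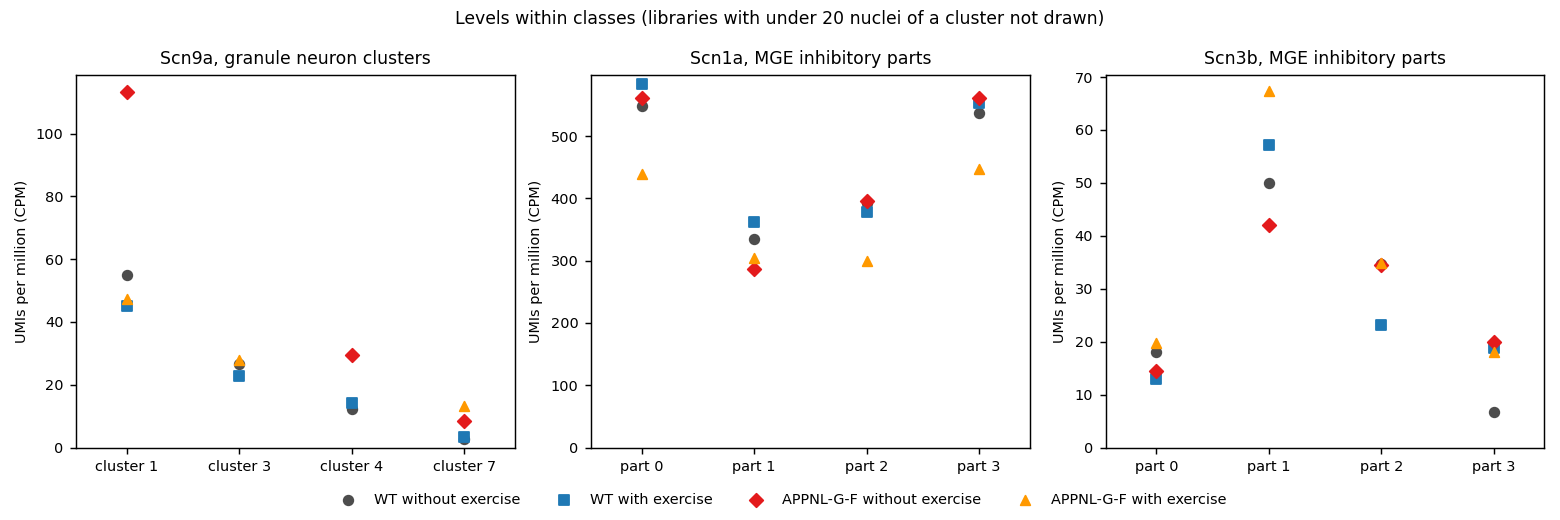
Levels in CPM (vertical axis) of Scn9a in 4 granule clusters, and of Scn1a and Scn3b in the 4 largest parts of the MGE class; each point is 1 library, and clusters with fewer than 20 nuclei in a library are not drawn for it. Scn1a was higher and Scn3b lower in parts 0 and 3 than in parts 1 and 2.

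The promoter side of Scn1a faces another transcript. The antisense gene Gm13629 starts at base 66440880 of chr2 on the plus strand, and 39 bases separate it from the first base of Scn1a at 66440840. It then runs over 65947 bases of Scn9a in the opposite direction. The line shows this stretch on the Scn1a strand, from chr2:66440811-66440909 of the RefSeq promoter table for GRCm38.p6, with the 39 bases between both starts in capitals.
Scn1a start region: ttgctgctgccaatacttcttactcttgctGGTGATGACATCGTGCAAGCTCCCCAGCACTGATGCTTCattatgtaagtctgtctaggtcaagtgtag

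Gm13629 was higher in inhibitory nuclei than in any excitatory class. It stood at 155, 130.4, 177 and 108 CPM in inhibitory nuclei. Among these, MGE nuclei gave 184, 162, 217 and 130 CPM and Lamp5 nuclei 52.0, 53.7, 82.7 and 39.0 CPM. In granule nuclei Gm13629 stood at 2.48, 3.13, 7.70 and 4.45 CPM and in CA1 nuclei at 3.17, 3.38, 5.84 and 6.39 CPM. Subicular or other excitatory nuclei had more, with 24.2, 25.6, 18.7 and 19.2 CPM. Mossy nuclei gave 15.8, 25.4, 19.1 and 8.92 CPM on few UMIs. The separation between inhibitory and excitatory nuclei was wider than for Scn1a and held in every library. Gm13630, which lies inside Scn1a on the other strand over 12095 bases, stood at 11.9, 10.5, 22.5 and 5.03 CPM in inhibitory nuclei and was highest in APPNL-G-F without exercise. Whether counting used the strand is not stated, so reads of Scn1a and Gm13630, or of Scn9a and Gm13629, cannot be told apart with certainty.

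Scn2a encodes the alpha subunit of early axons and excitatory axon initial segments (chr2:65620771-65767447, plus strand). It was the most evenly spread of the alpha genes over neurons. Granule nuclei gave 375, 373, 397 and 405 CPM, CA1 nuclei 350.4, 321, 336 and 351 CPM and inhibitory nuclei 336, 307, 306 and 344 CPM. CA3 nuclei gave 329.6, 313, 333 and 316 CPM and subicular or other excitatory nuclei 399, 379, 402 and 381 CPM. The ranges of subicular, mossy and granule nuclei, which led the order, overlapped with each other. MGE nuclei were the lowest neuron class, with a mean of 292 ± 29.7 CPM (SD, n = 4 libraries), and overlapped with CA3 and CA2.

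Scn3a, known as the alpha subunit of the embryonic brain, was at its highest in dentate granule nuclei (gene at chr2:65457118-65567627, minus strand). It stood there at 213, 217, 209.9 and 214 CPM, with the lowest granule library above every library of the other named classes. CA1 nuclei gave 92.3, 82, 92 and 90.1 CPM and CA3 nuclei 78.1, 74.2, 72.7 and 72.7 CPM. Among inhibitory nuclei the CGE class gave 156, 157, 131 and 147 CPM and the MGE class 54.3, 65.6, 50.6 and 68.5 CPM. The CGE and MGE libraries did not overlap, with the Lamp5 class between them at 119, 99.2, 99.8 and 129 CPM. Cajal-Retzius nuclei, an early-born cell type, gave 194, 161, 176 and 154 CPM and oligodendrocyte precursors 186, 136, 201 and 147 CPM.

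Oligodendrocyte precursors were the only named class of glia with more Scn3a than the average nucleus, 1.36 times the level over all nuclei. Their 250 Scn3a UMIs against 58 Scn3b UMIs gave a ratio of 4.31 (95% interval 3.23 to 5.84), whereas the ratio over all nuclei was 1.46. In microglia the ratio was 1.41 (95% interval 1.20 to 1.68), close to that over all nuclei, and in oligodendrocytes it was 1.03. The ratio in the precursors thus lay above that of microglia and of all nuclei by more than its counting interval.

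Scn8a, the alpha subunit of mature axon initial segments and nodes of Ranvier, was present in every neuron class and was higher in pyramidal and granule nuclei than in inhibitory nuclei (chr15:100869858-101045938, plus strand). CA1 nuclei gave 556, 498, 387 and 577 CPM. Granule nuclei gave 520.3, 476, 352 and 531 CPM. CA3 nuclei gave 487, 425, 309 and 533 CPM. Inhibitory nuclei gave 329, 329, 219.9 and 366 CPM, below the excitatory classes named here in each library. CA2 led the order with 620.1, 555, 398 and 583 CPM. The order of CA2, CA1, granule, CA3 and subicular nuclei rested on means whose ranges overlapped. Within inhibitory nuclei the MGE class stood at 383, 369, 256 and 412 CPM and the CGE class at 238, 249.6, 159.9 and 284 CPM. MGE was above CGE in every library.

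Scn9a, the alpha subunit of pain-sensing neurons, was low in hippocampus and unevenly spread (chr2:66480080-66634962, minus strand). The CGE class gave 87.5, 69.6, 104 and 48.8 CPM and the MGE class 44.4, 53.8, 106 and 24.1 CPM. Granule nuclei gave 35.6, 25.9, 56.1 and 28 CPM. CA1 nuclei gave 12, 11.3, 20.9 and 18.4 CPM and CA3 nuclei 10.2, 6.65, 12.4 and 9.51 CPM. CA2 nuclei had only 19 UMIs in 4 libraries and stood at 2.58, 1.52, 5.51 and 2.99 CPM. CGE and MGE overlapped, as did MGE and granule nuclei, while CA2 lay below CA1 in each library.

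Granule nuclei were not uniform for Scn9a. In granule cluster 1 (3137 nuclei) Scn9a stood at 55.1, 45.2, 113 and 47.5 CPM, and in granule cluster 7 (1862 nuclei) at 2.72, 3.28, 8.48 and 13.2 CPM. Cluster 1 exceeded cluster 7 in every library. The gene Trhr, which encodes the receptor for thyrotropin-releasing hormone and was chosen after its values were seen, stood at 28.8, 26.7, 71.9 and 29.97 CPM in cluster 1 and 2.93, 2.70, 10.8 and 2.20 CPM in cluster 7. CA1 clusters also differed, with 9.23 CPM in cluster 0 and 26.8 CPM in cluster 6 over all libraries.

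On a scale of CPM per kilobase of gene span, which corrects for length only if counts grow with span (not tested here), Scn8a made up 38.9% of the summed alpha level in CA1 nuclei (range over libraries 32.6 to 42.1%). In inhibitory nuclei Scn8a made up 22.9% and Scn1a 32.7%, whereas in granule nuclei Scn1a made up 11.9% and Scn3a 22.8%. Over granule, CA1, CA2, CA3, MGE and CGE nuclei the share of Scn2a stayed between 26.9% in MGE and 32.4% in CA3. The share of Scn9a ranged from 0.285% in CA2 nuclei to 6.21% in CGE nuclei. Among these classes the mix thus differed, with Scn1a weighted to inhibitory nuclei, Scn3a to granule nuclei and Scn8a to pyramidal nuclei. Some other classes had larger shares. Scn3a made up 28.1% in oligodendrocyte precursors and 26.0% in Cajal-Retzius nuclei, and Scn2a 37.4% in mossy nuclei. Scn8a made up 55.5% in committed oligodendrocyte precursors, on few UMIs. Scn8a is also among the genes that differed between libraries, which moved its share in CA1 over the range given.

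**Figure D2:**
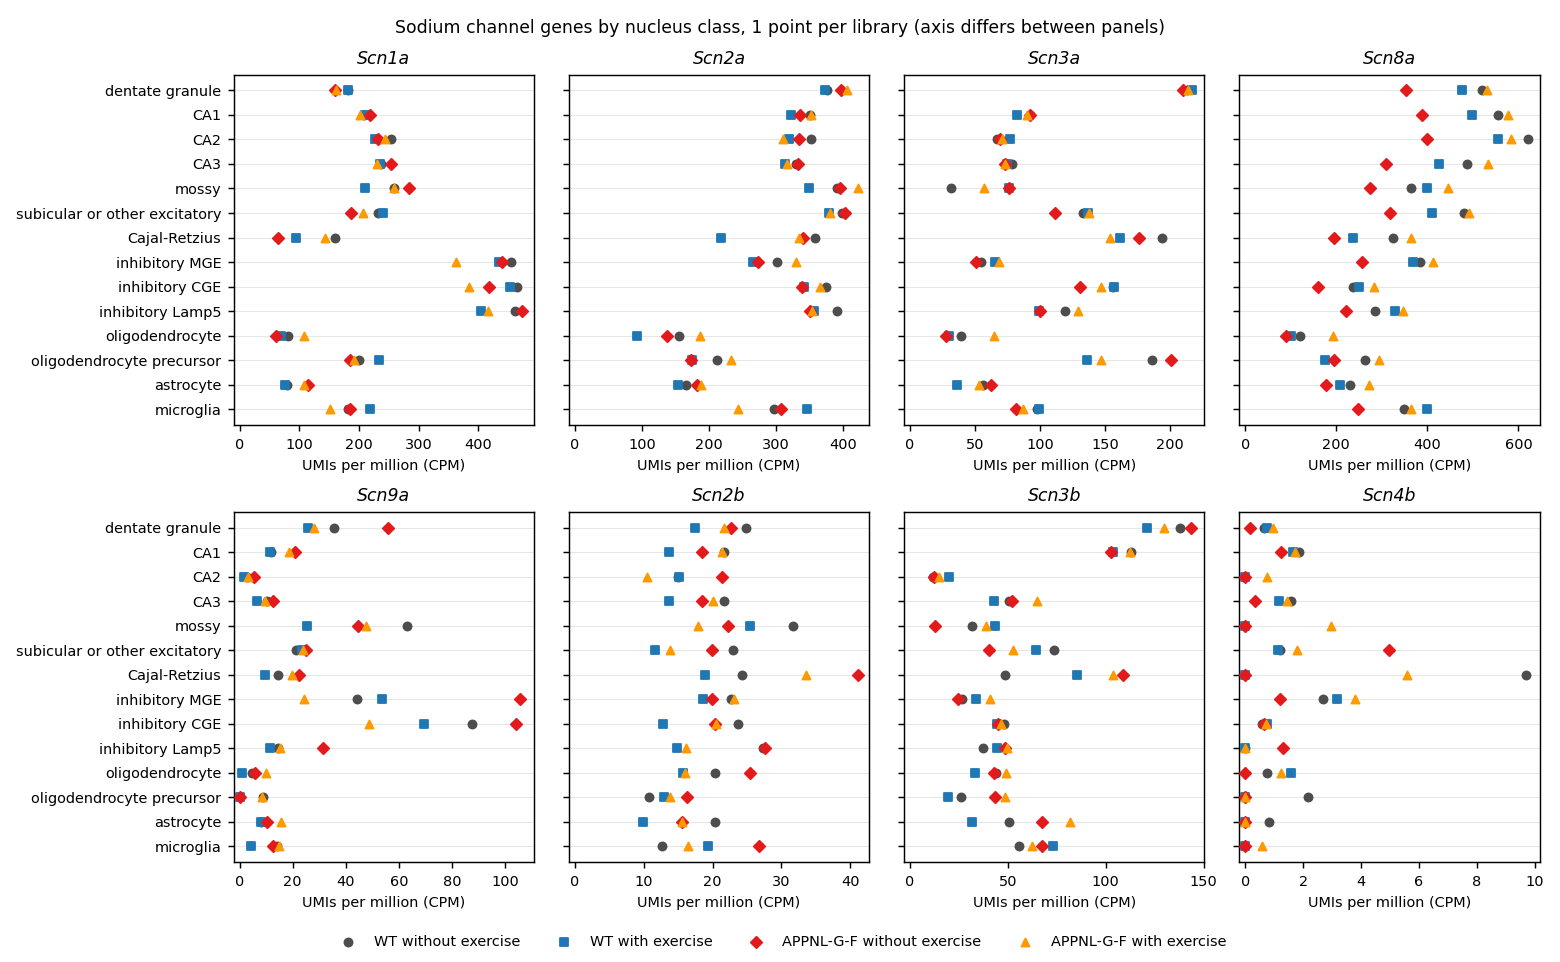
Level in CPM (horizontal axis) of each of the 8 sodium channel genes in 14 nucleus classes (vertical axis). Each point is 1 library. Scn1a was highest in inhibitory classes, Scn3a in granule nuclei and Scn9a in CGE and MGE nuclei, while Scn2b lay at similar levels in neurons and glia.

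Beta subunits attach to the alpha subunit by a disulfide bond (Scn2b and Scn4b) or without one (Scn3b). Scn2b (chr9:45117782-45130070, plus strand) showed almost no preference for a class. Granule nuclei gave 24.9, 17.4, 22.7 and 21.7 CPM, CA1 nuclei 21.6, 13.7, 18.5 and 21.4 CPM and oligodendrocytes 20.3, 15.7, 25.4 and 16.1 CPM. These ranges overlapped. Nuclei with at least 1500 UMIs were thinned to 1500 UMIs, and nuclei with fewer were left out. A UMI of Scn2b was then found in 3.30% of granule nuclei, 2.67% of CA1 nuclei and 2.39% of oligodendrocytes. A gene at the same low level in neurons and glia in droplet data cannot be told apart from free RNA, which was not measured here.

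Scn3b (chr9:40269217-40291618, plus strand) had its highest mean levels in granule and CA1 nuclei. Granule nuclei gave 138, 121, 144 and 129.8 CPM. CA1 nuclei gave 113, 104, 102 and 112 CPM. CA3 nuclei gave 50.4, 42.6, 52.1 and 64.7 CPM. CA2 nuclei were the lowest of the pyramidal classes, with 11.9, 19.7, 12.4 and 14.9 CPM from 87 UMIs. Inhibitory nuclei gave 34, 39.1, 34.7 and 44.1 CPM. Granule and CA1 libraries lay above all CA3, CA2 and inhibitory libraries. The third mean was that of Cajal-Retzius nuclei, 86.5 ± 27.3 CPM (SD, n = 4 libraries) from 85 UMIs, which overlapped with CA1. Microglia had a mean of 64.6 ± 7.42 CPM and astrocytes 57.9 ± 21.7 CPM, both overlapping with CA3. Within CA1, cluster 0 held 138, 121, 119 and 146 CPM and cluster 6 held 63.1, 55, 70.4 and 69.3 CPM, again with no overlap. The ratio of Scn3a to Scn3b was high in CA2, where 426 UMIs of Scn3a stood against 87 of Scn3b, or 4.90 (95% interval 3.88 to 6.24). This overlapped with the ratio in oligodendrocyte precursors, while in CA1 the ratio was 0.82.

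Scn4b (chr9:45138395-45154152, plus strand), which in other regions supports the resurgent current of fast-spiking cells, was close to the limit of detection, with 319 UMIs in all kept nuclei. CA1 held 31, 19, 14 and 21 UMIs. MGE nuclei held 10, 8, 3 and 11 UMIs, or 2.67, 3.16, 1.20 and 3.79 CPM. Thinned to 1500 UMIs, none of 639 microglia and 4 of 1210 MGE nuclei held a UMI of Scn4b. Levels this low allow no order among classes.

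Glia and neurons were compared at equal depth because their libraries differed in depth, with medians of 1671 to 5405 UMIs in microglia, 1351 to 2796 in oligodendrocytes and 5803 to 9839 in inhibitory nuclei over the libraries. Nuclei with fewer than 1500 UMIs were left out of the thinned shares, so the thinned glia shares describe only the deeper glia nuclei. Thinned to 1500 UMIs, Scn1a was found in 44.1% of inhibitory nuclei, 22.5% of granule nuclei, 19.8% of microglia and 10.4% of oligodendrocytes. Without thinning the shares were 88.2%, 59.4%, 38% and 14.3%. Scn8a was found in 52.5% of thinned CA1 nuclei and 32.1% of microglia. Scn9a was found in 11.1% of thinned CGE nuclei, 4.44% of granule nuclei, 0.187% of CA2 nuclei and 1.14% of microglia. The share of granule nuclei with Scn1a was only slightly above that of microglia, while the inhibitory share was well above both.

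Microglia kept 0.843, 0.871, 0.740 and 0.801 times the level of Scn1a, Scn2a, Scn3a and Scn8a over all nuclei. The same microglia also carried all 7 granule markers at a summed 1490.5 to 2212 CPM, beside their own 8 markers at 1421 to 2764 CPM, with no marker of either list at 0. Of the granule markers Glis3 stood at 207, 219, 112 and 174 CPM and Dock10 at 718, 694, 578 and 755 CPM in microglia. In granule nuclei Glis3 stood at 894, 807, 679 and 672 CPM and Dock10 at 1072, 1143, 1067 and 1217 CPM. Prox1 stood at 53.1, 92.5, 55.9 and 58.9 CPM in microglia against 267, 257, 221 and 227 CPM in granule nuclei. Dsp stood at 6.32, 15.1, 15.2 and 10.8 CPM against 52.8, 57.0, 48.9 and 57.8 CPM. These markers were lower in microglia to unequal degrees, so the sum does not track granule RNA evenly. The part of neuron RNA in the sodium channel values of microglia was not tested. In oligodendrocytes the ratios were 0.364 for Scn1a, 0.418 for Scn2a and 0.296 for Scn8a. The class of committed oligodendrocyte precursors had only 62 nuclei and stood at 301, 427, 303 and 336 CPM for Scn8a from 89 UMIs, against 13 UMIs of Scn1a.

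Across the 17 classes with at least 50 nuclei, the genes whose levels ran most alike to each member were searched among 15743 genes, on log2(CPM + 1) of the mean over libraries. All classes of a gene shared the same 4 libraries, so the coefficients are descriptions. For Scn1a they were Xkr4, Gm13630 and Krt222 (Pearson r 0.93, 0.92 and 0.92). For Scn2a they were Nrg3, Myt1l and Glt1d1 (each r 0.97). For Scn3a, Mamld1, Mmp16 and Pcbp3 reached only r 0.78, 0.76 and 0.73. Scn3a was thus the member with the least similar partners. For Scn8a they were Prdm15, Ulk4 and Nin (r 0.93, 0.92 and 0.91), and for Scn9a they were Cacng2, Mblac2 and Slc37a1 (r 0.90, 0.88 and 0.88). For Scn2b they were Trim39, Tsta3 and Pigo (r 0.96, 0.95 and 0.94). The lowest class of Scn2b, committed oligodendrocyte precursors at 1.91 CPM, rested on 1 UMI. The highest class, endothelial nuclei at 45.3 CPM, rested on 11 UMIs. Each class had equal weight, so these sparse classes weigh on the Scn2b coefficients. Syt17, Siae and Car12 were nearest to Scn3b (r 0.90, 0.87 and 0.85). Fut2, Casz1 and Gm6569 were nearest to Scn4b (r 0.87, 0.84 and 0.84), with the low count of Scn4b behind them.

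The 4 groups were compared in 4 ways, within each class: APPNL-G-F against WT without exercise, exercise in WT, exercise in APPNL-G-F, and APPNL-G-F against WT with exercise. These comparisons share libraries and are not independent of each other. A gene counted as measured with at least 50 UMIs over both libraries, and as past the fold with a log2 ratio of at least 0.5 in size. The main neuron classes, granule, CA1, CA3 and inhibitory, gave 32 pairs of gene and class.

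In APPNL-G-F without exercise, Scn8a was lower and Scn9a higher than in WT without exercise. Of 28 measured pairs, 3 were higher past the fold, all of them Scn9a, against 15.3% of all measured genes in these classes. A further 4 were lower, all of them Scn8a, against 13.7% of all genes. As shares of the pairs, 10.7% and 14.3%, these counts were near that background. The log2 ratio of Scn8a was -0.56 (95% interval -0.62 to -0.51) in granule, -0.52 (95% interval -0.57 to -0.47) in CA1, -0.66 (95% interval -0.73 to -0.58) in CA3 and -0.58 (95% interval -0.69 to -0.47) in inhibitory nuclei. Lower in all 4 classes past the fold was 3.8% of the 10525 genes measured in all of them. For Scn9a it was 0.66 (95% interval 0.50 to 0.81) in granule, 0.80 (95% interval 0.53 to 1.08) in CA1, 0.28 (95% interval -0.17 to 0.72) in CA3 and 0.88 (95% interval 0.68 to 1.09) in inhibitory nuclei. Scn1a, Scn2a, Scn3a, Scn2b and Scn3b stayed within a log2 ratio of 0.5 in all 4 classes, and Scn4b was not measured. The median of the 7 measured members was -0.02, -0.06, 0.02 and -0.13 in granule, CA1, CA3 and inhibitory nuclei, and that of all genes was -0.03, -0.06, -0.14 and -0.04.

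The low Scn8a of that library was not limited to the main classes. APPNL-G-F without exercise held the lowest value of the 4 libraries in 13 of the 15 classes where Scn8a was measured, and APPNL-G-F with exercise the highest in 12 of 15. Within granule cluster 1 the values were 544, 519.7, 347 and 614 CPM, and within CA1 clusters 0 and 6 they were 558, 504, 395 and 595 and 550.0, 482, 373 and 555 CPM, with the same library lowest each time. Its share of Malat1 UMIs, 9.57%, was the highest of the libraries, and long genes were lower in it. Median log2 ratios are given for genes with a span of at least 100 kb, genes under 30 kb and all genes. They were -0.15, 0.11 and -0.03 for granule nuclei and -0.12, 0.05 and -0.06 for CA1. For inhibitory nuclei they were -0.16, 0.12 and -0.04. For CA3 they were -0.15, -0.05 and -0.14, so long genes hardly differed from all genes there. Other members also span over 100 kb. Of these, Scn1a, Scn2a and Scn3a were not lower past the fold, and Scn9a was higher past it in each main class but CA3. With the 50 highest genes and mitochondrial genes left out of the total, the ratio of Scn8a was -0.48 in granule and -0.42 in CA1 nuclei, inside the threshold, and with median-of-ratios factors -0.50 in CA1. The part of these features in the result was not tested.

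**Figure D3:**
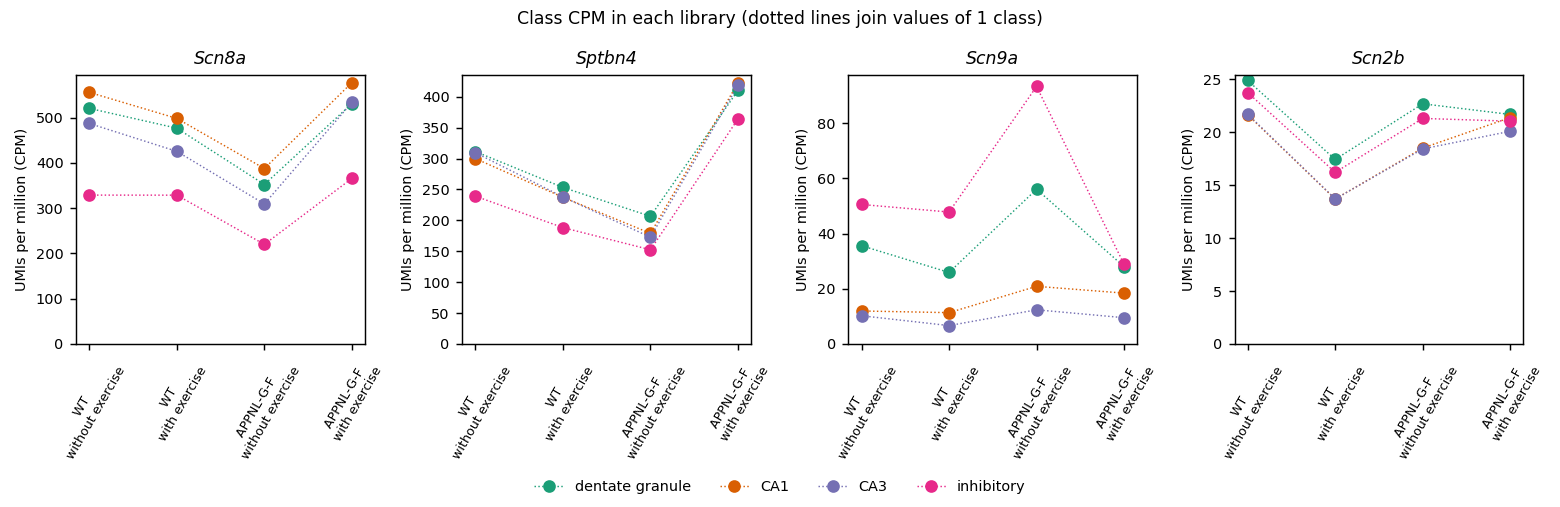
Levels in CPM (vertical axis) of Scn8a, Sptbn4, Scn9a and Scn2b in each library (points) in granule, CA1, CA3 and inhibitory nuclei. Scn8a and Sptbn4 were lowest in APPNL-G-F without exercise in all 4 classes, where Scn9a was highest, and Scn2b was lowest in WT with exercise.

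The higher Scn9a of APPNL-G-F without exercise was seen in 7 of the 8 classes where it was measured, where this library was the highest of the 4. In MGE nuclei the log2 ratio was 1.25 (95% interval 0.97 to 1.54), and within MGE part 0 the values were 85.1, 84, 162 and 21.9 CPM. In granule cluster 1 they were 55.1, 45.2, 113 and 47.5 CPM, so the difference was present inside a cluster. The last of these values came from only 42 nuclei. Gm13629, which overlaps Scn9a, was also highest in that library among inhibitory nuclei and lowest in APPNL-G-F with exercise. Granule nuclei were spread unevenly over clusters, with 91.2% of cluster 3 from APPNL-G-F with exercise and 71.5% of cluster 4 from APPNL-G-F without exercise. In cluster 4 Scn9a stood at 12.3, 14.1 and 29.5 CPM in the first 3 groups.

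**Figure D4:**
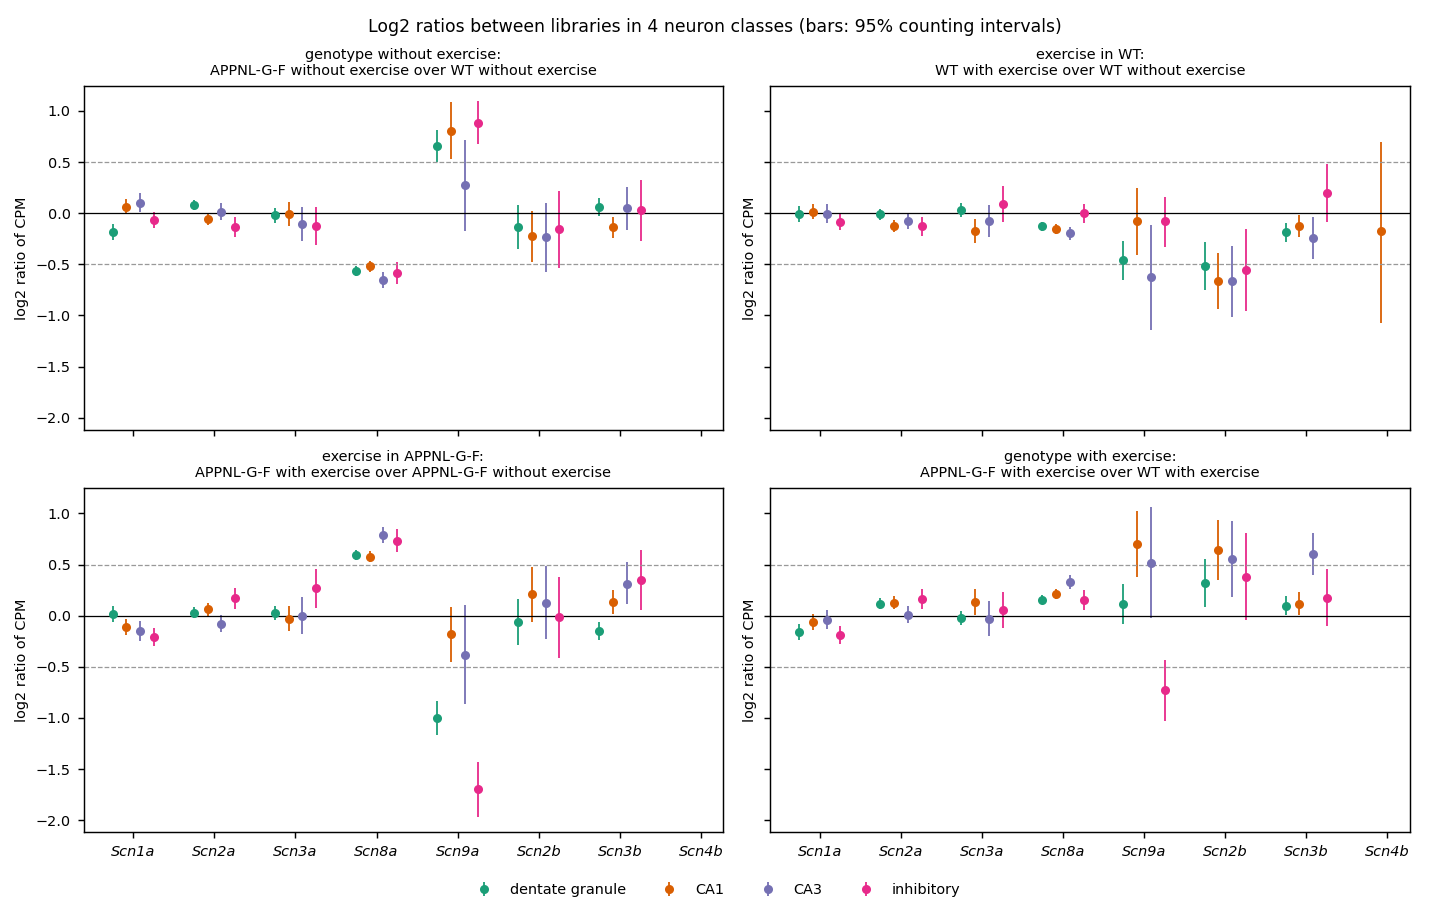
Log2 ratios (vertical axis) of the 8 genes in granule, CA1, CA3 and inhibitory nuclei for the 4 comparisons (panels), with 95% counting intervals and dashed lines at 0.5 and -0.5. Scn8a lay below -0.5 in APPNL-G-F without exercise against WT without exercise and above 0.5 for exercise in APPNL-G-F.

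Within WT mice, Scn2b was lower in the library with exercise. Of 29 measured pairs none was higher past the fold, against 2.79% of all genes, and 5 were lower, against 13.3%. These were Scn2b in all 4 classes and Scn9a in CA3. The share of 17.2% lower was near the background. The log2 ratio of Scn2b was -0.51 (95% interval -0.75 to -0.28) in granule, -0.66 (95% interval -0.94 to -0.39) in CA1, -0.66 (95% interval -1.02 to -0.32) in CA3 and -0.55 (95% interval -0.96 to -0.16) in inhibitory nuclei. Genes lower past the fold in all 4 classes were 2.53% of 10429. With median-of-ratios factors the ratios of Scn2b became -0.39, -0.49, -0.49 and -0.42, so none passed. The median of all genes was between -0.18 and -0.12 in the 4 classes, and genes with a span under 30 kb, as Scn2b has, had a median of -0.18 in granule and -0.29 in CA3 nuclei. The part of gene length in the result was not tested. WT with exercise was the lowest library for Scn2b in 8 of the 10 classes where it was measured. The ratios of Scn8a were -0.13, -0.16 and -0.20 in granule, CA1 and CA3 nuclei, inside the threshold.

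Within APPNL-G-F mice, Scn8a was higher and Scn9a lower in the library with exercise. Of 28 measured pairs 4 were higher past the fold, all Scn8a, against 28.6% of all genes, and 2 were lower, both Scn9a, against 19.4%. The share of 14.3% higher was below the background. The log2 ratio of Scn8a was 0.59 (95% interval 0.54 to 0.64) in granule, 0.58 (95% interval 0.52 to 0.63) in CA1, 0.79 (95% interval 0.71 to 0.87) in CA3 and 0.73 (95% interval 0.63 to 0.84) in inhibitory nuclei. Higher past the fold in all 4 classes were 17.1% of 10442 genes. Other scalings changed which pairs passed. Scn8a in CA1 was 0.49 with TMM factors, 0.47 with median-of-ratios factors and 0.42 without the 50 highest and mitochondrial genes, inside the threshold each time. The last of these also brought Scn8a in granule nuclei to 0.46. Scn9a was -1.002 (95% interval -1.17 to -0.84) in granule and -1.69 (95% interval -1.97 to -1.43) in inhibitory nuclei, and -0.18 (95% interval -0.45 to 0.09) in CA1 and -0.38 (95% interval -0.86 to 0.10) in CA3 nuclei. In CA3 it passed the threshold under those 3 scalings (-0.52, -0.52 and -0.56), and in CA1 its sign turned with 4000 variable genes in the clustering (0.42). Granule nuclei of both libraries lie mostly in different clusters, 3 and 4. Scn9a stood at 28.02 CPM (95% interval 25.7 to 30.5) in cluster 3 with exercise. It stood at 29.5 CPM (95% interval 25.6 to 33.9) in cluster 4 without exercise. Cluster 1, with Scn9a at 113 CPM without and 47.5 CPM with exercise, held 28.1% and 1.56% of their granule nuclei. In cluster 7 Scn9a stood at 8.48 CPM without and 13.2 CPM with exercise. The part of this cluster mix in the granule ratio of Scn9a was not tested. The granule markers stood at 5348, 5422, 4908 and 3973 CPM in the granule class. Most of the difference between the last 2 sums was Rfx3, at 1949, 2032, 1977 and 1075 CPM, while Prox1 stood at 267, 257, 221 and 227 CPM. Malat1 took 9.57% of UMIs without and 3.35% with exercise in this genotype.

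With exercise in both genotypes, 5 of 28 measured pairs were higher past the fold, against 30.2% of all genes, and 1 was lower, against 7.73%. Higher were Scn2b and Scn9a in CA1 and CA3 and Scn3b in CA3, and lower was Scn9a in inhibitory nuclei. Scn3b in CA3 had a log2 ratio of 0.60 (95% interval 0.40 to 0.81). Scn9a was 0.70 (95% interval 0.38 to 1.02) in CA1 and -0.73 (95% interval -1.03 to -0.43) in inhibitory nuclei. Scn2b was 0.64 (95% interval 0.35 to 0.94) in CA1 nuclei. With TMM factors and with median-of-ratios factors 1 pair passed, so this comparison depended on the scaling, and the median of all genes moved by over 0.1 between scalings, from 0.28 in CA1 on class totals to 0.03 with median-of-ratios factors.

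Outside the main neuron classes, oligodendrocytes also differed between libraries, at low sodium channel levels. Scn8a stood at 121, 101, 90.4 and 192 CPM, Scn2a at 155, 92.9, 138 and 187 CPM and Scn3a at 39.5, 29.9, 27.7 and 64.5 CPM. APPNL-G-F with exercise was the highest library for all 3 genes. Cluster 10 held 96.8% of the oligodendrocytes of APPNL-G-F with exercise and 0 of those without. Cluster 9 held 91.9% of those without exercise and 0 of those with. Oligodendrocytes had a mean of 1466 UMIs per nucleus without and 2934 with exercise in this genotype. The part of depth and clustering in these values was not tested. For exercise in APPNL-G-F the log2 ratio was 1.09 (95% interval 0.86 to 1.32) for Scn8a and 1.22 (95% interval 0.81 to 1.65) for Scn3a. In that comparison 52.5% of all genes in oligodendrocytes lay past the fold, and the median was 0.67 for genes with a span of at least 100 kb, as both have, and -0.38 for those under 30 kb. The part of gene length in these ratios was not tested. The 7 granule markers, none at 0, summed to 4375, 4704, 3173 and 3931 CPM in the same oligodendrocytes, and the 8 oligodendrocyte markers, none at 0, to 15676, 15289.9, 15199.6 and 13242 CPM. The granule marker Dock10 made up most of the granule sum. It was higher in oligodendrocytes (3162, 3466, 2407 and 2829 CPM) than in granule nuclei (1072, 1143, 1067 and 1217 CPM), so the sum does not track granule RNA there. Of the 7, Glis3, Rfx3 and Dsp were highest in APPNL-G-F with exercise, and Prox1, C1ql2, Stxbp6 and Dock10 were not. Glis3 stood at 34.3, 25.2, 9.08 and 96.2 CPM and Stxbp6 at 661, 667, 361 and 429 CPM. The part of neuron RNA in these values was not tested. In subicular or other excitatory nuclei Scn3b stood at 73.4, 64.2, 40.5 and 52.7 CPM. Its log2 ratio was -0.86 (95% interval -1.27 to -0.47) for genotype without exercise, where 19.3% of all genes were lower past the fold. Scn2b had -0.99 (95% interval -1.47 to -0.51) for exercise in WT, where 15.4% were lower. This class had means of 15758, 21716, 6228 and 10632 UMIs per nucleus, and the part of depth was not tested. In MGE nuclei Scn3b had 0.75 (95% interval 0.29 to 1.22) for exercise in APPNL-G-F, where 28.8% of all genes were higher.

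Genes for the scaffold that holds sodium channels at the axon initial segment and node included several that were, like Scn8a, higher in APPNL-G-F with exercise than without. The list holds 10 genes (Ank3, Sptbn4, Sptan1, Nfasc, Nrcam, Cntn1, Cntn2, Cntnap1, Cntnap2 and Trim46). It was chosen with earlier results of these data known, so its counts and medians are descriptions and no test. Exercise in APPNL-G-F had 6, 6, 6 and 5 of the 10 higher past the fold in granule, CA1, CA3 and inhibitory nuclei, with 0, 1, 1 and 1 lower. Of all genes 26.4, 29.4, 31.7 and 27% were higher and 21.9, 19.2, 17.2 and 19% lower in those classes. The median of the list was 0.70, 0.74, 0.84 and 0.63, against 0.09, 0.14, 0.18 and 0.12 for all genes. In APPNL-G-F without exercise against WT without exercise none of the 10 was higher and 1, 3, 3 and 1 were lower, against 10, 14, 19.9 and 11.1% of all genes lower and 16.9, 15.9, 12.4 and 15.9% higher. The 1 gene in granule and in inhibitory nuclei is at the background.

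Sptbn4, beta-IV spectrin, which links ankyrin G to the axon membrane skeleton, stood at 311, 253, 207 and 410.3 CPM in granule nuclei. It stood at 299.9, 237, 179 and 423 CPM in CA1 nuclei and 309.5, 238, 173 and 418 CPM in CA3 nuclei. The lowest and highest libraries were the same as for Scn8a. Its log2 ratio for exercise in APPNL-G-F was 0.99, 1.24, 1.28 and 1.26. Sptan1 (alpha-II spectrin), Nfasc (neurofascin), Cntn2 (a contactin of the juxtaparanode) and Cntnap1 (Caspr, of the paranode) were also higher past the fold in all 4 classes in that comparison. Cntnap2 (Caspr2, of the juxtaparanode) was higher in granule nuclei, 0.87, and lower in CA1, CA3 and inhibitory nuclei, -0.65, -0.63 and -0.51. Ank3, ankyrin G itself, stayed inside the threshold with 0.34 in granule and 0.34 in CA1 nuclei.

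The FGF homologous factors bind the tail of the alpha subunit and alter its inactivation. Fgf14 was abundant, and in CA1 nuclei it stood at 2269, 2382, 2490.1 and 1502 CPM. For exercise in APPNL-G-F it was lower past the fold in CA1 and CA3 nuclei (-0.73 and -0.77), opposite to Scn8a, and Fgf13 was lower in CA3 (-0.63). Fgf11, at a level of 10.2, 8.57, 5.66 and 13.2 CPM in CA1 nuclei, was higher in all 4 classes, with 0.95, 1.22, 0.86 and 1.05.

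Scn7a, which encodes a sodium sensor and is no member of the group, was low in the 4 main classes. In CA3 nuclei it stood at 12.9, 9.13, 10.2 and 6.47 CPM, with a log2 ratio of -0.65 (95% interval -1.22 to -0.09) for exercise in APPNL-G-F on small counts.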

How the data were processed

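Nuclei from 4 libraries, 1 per group, were analysed. The authors deposited a matrix of raw UMI counts per gene and barcode for each library. Alignment and counting used Cell Ranger: version 3.1.0 with mm10 per the submitters' processing notes, but version 5.0.1 per the file headers. Whether intronic reads and strand counted is not given in these sources. The open-chromatin data that the study names were not used here. A nucleus was kept if it had 500 genes and 1000 UMIs or more, with mitochondrial genes below 5% of them, and simulated doublets were used to leave out a set rate of 0.8% per 1000 nuclei, or 5.50 to 8.98% per library. Total counts were 64158446 to 91676884 UMIs per library.

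Clusters came from scanpy 1.11.5 (2000 variable genes, 30 principal components, 15 neighbours, Leiden resolution 1.0) and were named from fixed markers. Counts were summed per library and class, divided by the class total and given per 1000000 (CPM), with exact Poisson intervals at 95%. Ratios have exact conditional binomial intervals, and shares of nuclei with a UMI are means over libraries. UMIs were taken as independent molecules. With 1 library per group, no test between groups was run. The ratio script was tested on simulated data. Scalings from edgeR 4.0.16 (TMM) and median-of-ratios factors, other filters, thinning and clusterings were tried. Of 32285 gene identifiers, 32235 matched GENCODE M21, which gave positions.

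The members and lists were chosen with earlier results of these data known. Named genes were the 8 members, the 3 genes most alike to each member among genes with at least 200 UMIs, and genes of the lists of other subunits, FGF homologous factors and axon initial segment scaffold past the fold in a main neuron class. Some genes of these lists and some sequences are not reported here.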

Additional observations from a re-analysis of the deposited data

Results flagged for a closer look

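In 6 of the 32 pairs of gene and class, both exercise log2 ratios had 95% counting intervals apart from 0, with opposite signs in WT and APPNL-G-F. Ratios were taken on class totals. The median of all genes for exercise in WT was -0.12, -0.16, -0.18 and -0.13 in granule, CA1, CA3 and inhibitory nuclei. For exercise in APPNL-G-F it was 0.09, 0.14, 0.18 and 0.12, so the medians were opposite in sign too. The share of all genes with opposite signs was not counted. The difference between genotypes was not tested, since 4 libraries leave no replicate.

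The log2 ratio for exercise in APPNL-G-F minus that in WT was 0.72 for Scn8a in granule nuclei, 0.73 in CA1 and 0.98 in CA3. In all 3 classes Scn8a was lower with exercise in WT (-0.13, -0.16 and -0.20) and higher with exercise in APPNL-G-F (0.59, 0.58 and 0.79). APPNL-G-F without exercise, the library with the highest Malat1 share (9.57%), was the lowest for Scn8a in all 3. The part of that library's composition in these differences was not tested.

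For Scn3b the difference was 0.26 in CA1, from -0.12 in WT and 0.13 in APPNL-G-F, and 0.55 in CA3, from -0.24 and 0.31. For Scn2a it was 0.30 in inhibitory nuclei, from -0.13 and 0.17. None of these Scn3b and Scn2a ratios reached 0.5 in size.

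These signs depended on the scaling. With TMM factors 5 of the 6 pairs and with median-of-ratios factors 4 of the 6 kept opposite signs, and in neither did any pair keep both intervals apart from 0. With TMM factors Scn8a in WT was -0.03, -0.02 and -0.04 in granule, CA1 and CA3 nuclei, and with median-of-ratios factors it was 0.01 in CA1. Scn3b in CA1 was 0.02 in WT and 0.04 in APPNL-G-F with TMM factors.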

How the results depend on the processing

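No paired analysis was possible because each group had 1 library. Of the pairs past the fold, genotype without exercise had 7, and 11 with genes of at least 1 UMI counted as measured. Exercise in WT had 5, with 2 under TMM factors and 0 under median-of-ratios factors, which shift ratios of all genes alike. Exercise in APPNL-G-F had 6, and its count stayed within 1.5 times of that under every alternative run, but not with the same pairs: under each of the 3 other scalings Scn8a in CA1 was lost and Scn9a in CA3 gained. Genotype with exercise had 6, with 1 under TMM factors, 1 under median-of-ratios factors and 3 with the total taken without mitochondrial and the 50 highest genes. The count of members whose highest share of nuclei with a UMI fell in the same class as at 1500 UMIs was 3 of 8 without thinning. Of 113 ratios in the main neuron classes, 24 were past the fold and none of these changed sign, whereas 53 of the smaller ones changed sign under 1 alternative or more, and 32 of those 53 had an interval that holds 0. Depth limits Scn4b, with 319 UMIs, and Scn9a in CA2, with 19 UMIs.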

Other observations

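Unnamed nuclei, 12 to 16.1% of a library, held Scn1a at 228, 227, 237 and 214 CPM, between the levels of granule and inhibitory nuclei.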
